A study of Mus musculus with 2 samples.

Results

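The 8 genes described here, Foxp3, Ikzf2, Ikzf4, Ebi3, Nrp1, Itgae, Lrrc32 and Entpd1, mark the regulatory T cell, and the measurements are of reporter activity of genomic DNA around them in a different helper T cell. The members are the rows of the authors' deposited element table whose midpoint lay within 50 kb of an annotated transcript start of 1 of these genes. There were 14 such elements among 18431 in the table, at 7 of the 8 genes, with Lrrc32 the exception. Measured values played no part in the rule, but the table itself holds only elements with a q-value below 0.01.

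The cells were C57BL/6NJ primary T-helper 2 (Th2) cells carrying the reporter as an episome after transient transfection. Per the labels they were given antibodies to CD3e (0.25 ug/mL) and CD28 (1 ug/mL) over 3 days, which engage the T-cell receptor and its costimulator. Interferon-gamma was blocked with an antibody at 2 ug/mL over 4 days, interleukin-2 was present over the same time, and interleukin-4, which drives the Th2 fate, was added. Both output libraries had this treatment. They are labelled biological replicates 1 and 2 of 1 group and share 1 donor record, so the authors' p-values may measure technical spread only, and age and sex are not recorded. There is no other cell type or treatment, and the input library is not used here. Because the files hold no expression values, the labelled cell type could not be checked against marker genes.

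In self-transcribing active regulatory region sequencing (STARR-seq), genomic fragments are cloned into a transcribed part of a plasmid and each fragment is read out in its own RNA, away from its native chromatin. The table gives 1 log2 fold, p-value and q-value per element from both libraries together. Its base and direction are not stated in the sources used here, and values are read as log2 of RNA output over input, so that a positive fold means more reporter RNA. With no value per library, no spread between libraries can be given, and read depth per element is unknown. Across the 18414 elements on assembled chromosomes, 13170 had a positive fold with a median log2 of 1.20, and 5244 a negative fold with a median of -1.23.

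Regulatory T cells restrain other immune cells, and the transcription factor FOXP3 fixes their identity. Its gene is controlled by a promoter and by conserved noncoding sequences in its introns, which respond to STAT5 downstream of interleukin-2, to T-cell receptor signals and to TGF-beta, and of which conserved noncoding sequence 2 (CNS2) is demethylated in stable regulatory T cells. Helios (Ikzf2) and Eos (Ikzf4) are Ikaros-family zinc finger factors that act with FOXP3. EBI3 is a subunit of interleukin-35, and CD39 (Entpd1) degrades extracellular ATP. GARP (Lrrc32) holds latent TGF-beta on the cell surface, the integrin subunit CD103 (Itgae) binds E-cadherin, and neuropilin-1 (Nrp1) is a semaphorin and growth factor receptor.

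The sequences below are from the elements with the lowest q-value at each gene where the centre is free of untranslated exon, and from further elements, chosen after their values were seen, that carry AP-1, STAT or cyclic AMP response element (CRE) sites. Each is the forward strand of mm10, 5′ to 3′, and the longer ones cover at most 300 bases around the midpoint of the element. The capitals mark matches to the consensus sites listed further on. The 25 bases of the Ikzf4 promoter lie in an untranslated part of exon 1 and are limited to its pair of STAT sites. The 48 bases at Zfp119b, a zinc finger gene next to Ebi3, surround its CRE.
Foxp3 intron element (chrX:7584039-7584338): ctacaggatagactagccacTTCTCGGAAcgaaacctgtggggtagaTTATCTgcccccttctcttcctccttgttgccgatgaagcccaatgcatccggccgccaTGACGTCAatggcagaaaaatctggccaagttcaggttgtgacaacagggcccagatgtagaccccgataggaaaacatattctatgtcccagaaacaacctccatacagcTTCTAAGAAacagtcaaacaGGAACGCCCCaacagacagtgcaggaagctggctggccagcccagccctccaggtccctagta
Nrp1 upstream element (chr8:128333414-128333713): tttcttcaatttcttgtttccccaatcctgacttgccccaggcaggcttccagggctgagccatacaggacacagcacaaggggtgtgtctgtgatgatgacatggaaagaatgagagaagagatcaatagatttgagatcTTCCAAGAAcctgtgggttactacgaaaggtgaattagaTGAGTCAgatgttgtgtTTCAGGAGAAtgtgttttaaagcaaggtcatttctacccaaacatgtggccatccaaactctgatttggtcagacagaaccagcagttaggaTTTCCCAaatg
Itgae first-intron element (chr11:73092926-73093225): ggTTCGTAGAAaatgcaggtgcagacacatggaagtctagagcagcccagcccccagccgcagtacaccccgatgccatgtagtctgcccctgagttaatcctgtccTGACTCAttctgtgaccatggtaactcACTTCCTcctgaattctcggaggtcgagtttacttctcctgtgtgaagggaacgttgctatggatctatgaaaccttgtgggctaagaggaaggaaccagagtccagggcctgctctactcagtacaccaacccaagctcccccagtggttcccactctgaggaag
Itgae distal intron element (chr11:73128576-73128875): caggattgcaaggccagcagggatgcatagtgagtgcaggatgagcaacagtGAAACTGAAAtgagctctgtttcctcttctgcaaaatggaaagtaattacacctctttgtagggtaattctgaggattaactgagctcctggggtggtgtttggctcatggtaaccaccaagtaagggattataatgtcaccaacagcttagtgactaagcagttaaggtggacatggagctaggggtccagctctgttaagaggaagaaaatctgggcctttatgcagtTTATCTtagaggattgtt
Entpd1 upstream intron element (chr19:40639976-40640275): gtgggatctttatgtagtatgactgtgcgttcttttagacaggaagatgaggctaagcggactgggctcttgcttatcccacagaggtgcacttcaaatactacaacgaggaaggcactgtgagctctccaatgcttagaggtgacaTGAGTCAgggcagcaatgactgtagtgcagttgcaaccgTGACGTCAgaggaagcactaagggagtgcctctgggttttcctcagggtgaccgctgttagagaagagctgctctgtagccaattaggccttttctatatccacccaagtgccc
Entpd1 downstream intron element (chr19:40684101-40684375): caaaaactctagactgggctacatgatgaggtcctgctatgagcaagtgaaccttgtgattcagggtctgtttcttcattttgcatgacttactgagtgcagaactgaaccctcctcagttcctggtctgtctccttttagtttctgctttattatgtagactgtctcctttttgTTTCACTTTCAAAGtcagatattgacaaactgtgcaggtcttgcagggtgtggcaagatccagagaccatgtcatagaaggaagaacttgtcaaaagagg
Ikzf2 promoter element (chr1:69687389-69687688): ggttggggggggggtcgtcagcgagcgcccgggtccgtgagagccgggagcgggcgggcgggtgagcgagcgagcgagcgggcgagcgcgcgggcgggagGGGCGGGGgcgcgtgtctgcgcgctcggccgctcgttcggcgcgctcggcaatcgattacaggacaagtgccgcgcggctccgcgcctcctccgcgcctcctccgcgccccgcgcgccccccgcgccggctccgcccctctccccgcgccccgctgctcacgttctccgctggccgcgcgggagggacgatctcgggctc
Ikzf4 promoter STAT pair (chr10:128645852-128645876): TTCCAGGAAgcgtggaTTCCTGGAA
Zfp119b promoter CRE (chr17:55944918-55944965): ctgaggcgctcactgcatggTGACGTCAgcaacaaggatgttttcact

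Positive elements lay within 50 kb of 6 of the 8 genes (75%), where 55.1% of all 21938 protein-coding genes had one. Negative elements lay near 2 of the 8, Ikzf2 and Ebi3, against 39.9% of all genes. Lrrc32 alone had no element, as did 31.8% of all genes. Of the 14 elements 11 were positive, or 78.6% (exact 95% binomial interval 49.2 to 95.3, counting error only), close to the 71.5% of the whole table. There were 1.75 elements per gene, against a mean of 1.69 over all protein-coding genes, in which an element near several genes counts for each. The 11 positive elements had a median log2 fold of 0.91 (exact 95% interval of the median 0.60 to 2.75) and ran from 0.58 to 2.96. This interval treats the elements as independent draws, although several share a locus. It does not measure error of the folds or spread between libraries. In this set 3 elements passed the median of all positive elements, 1 each near Foxp3, Ebi3 and Entpd1.

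**Figure D1:**
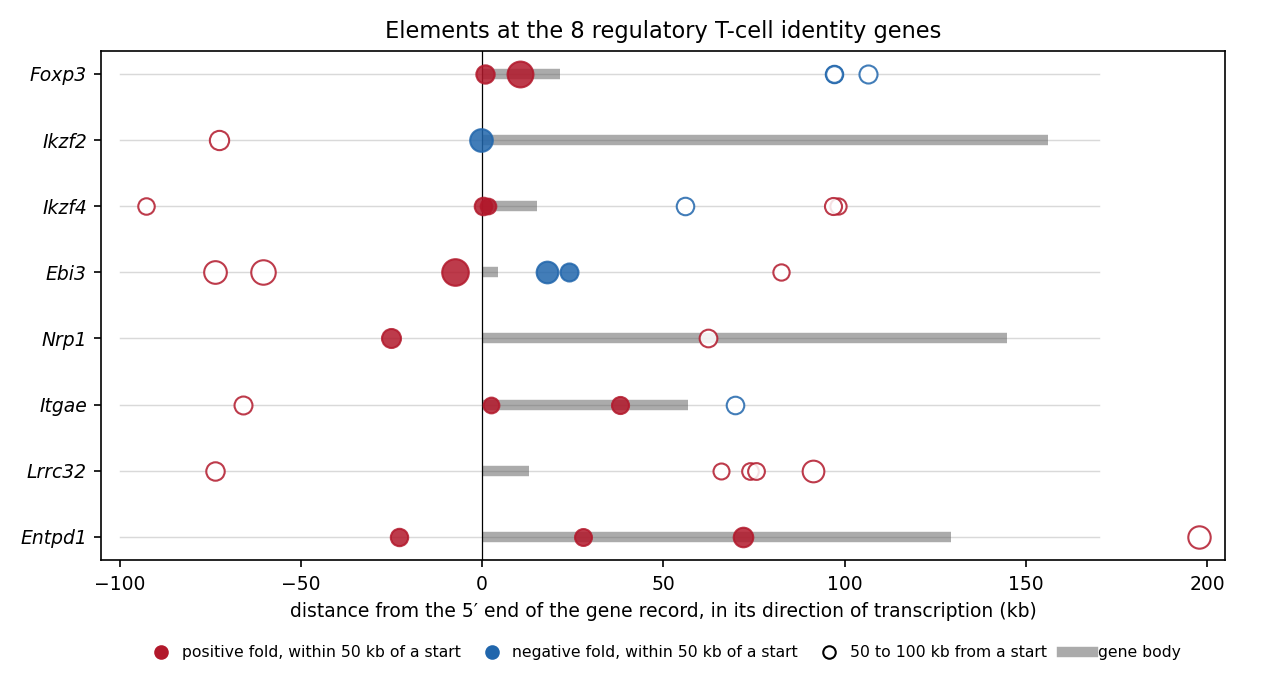
Map of the 8 genes, with the distance of each element's midpoint from the 5′ end of the gene record on the horizontal axis (kb, in the direction of transcription) and a row per gene. Filled circles are the 14 elements within 50 kb of a transcript start, open circles those between 50 and 100 kb, red is positive and blue negative, and the area grows with the absolute log2 fold. The 2 largest filled circles are at Foxp3 (2.75) and Ebi3 (2.96), and Lrrc32 has open circles only.

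**Figure D2:**
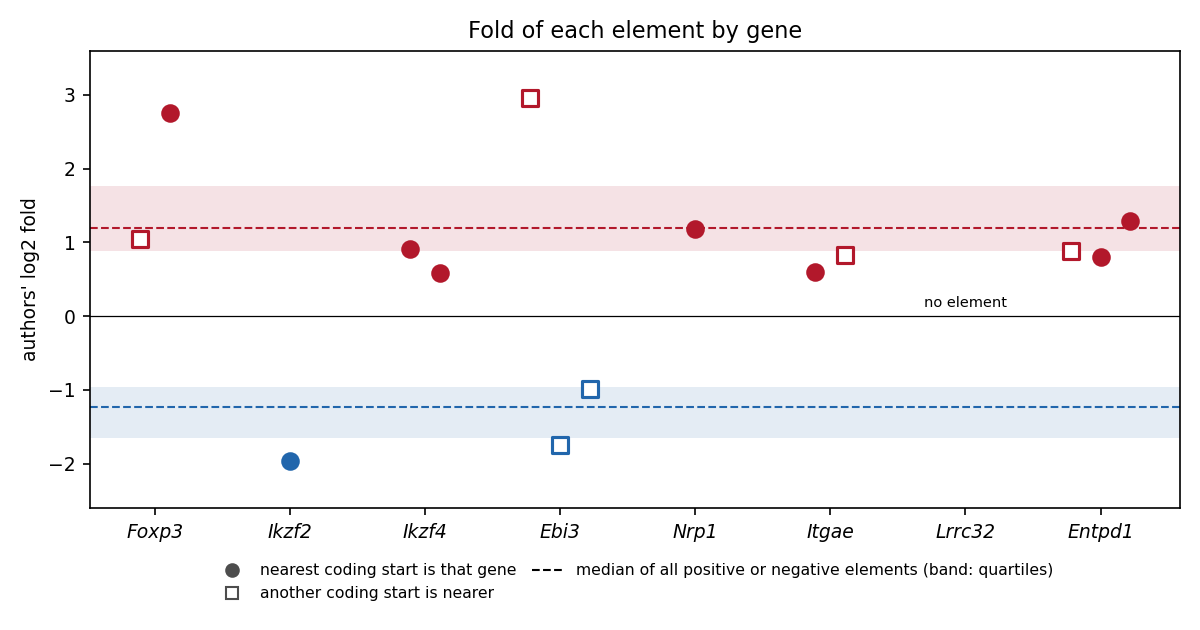
The authors' log2 fold of each of the 14 elements (vertical axis) by gene. Filled circles are elements whose nearest protein-coding transcript start is that of the gene, open squares those with another coding start nearer. Dashed lines and bands are the median and quartiles of all positive (red) and all negative (blue) elements. Most positive elements lie below the positive median of 1.20.

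Foxp3 (chrX:7573644-7595245, forward strand) held the strongest element whose nearest coding start is that of a member gene. It spanned chrX:7583951-7584425 (475 bp) and had a log2 fold of 2.75, a 6.73-fold higher reporter signal (p = 2.03e-13, q = 1.20e-10 in the authors' deposited table). It ranked 192 by q-value among the 13170 positive elements, and its fold was at percentile 91.6 of them and at percentile 93.7 of the 5088 intronic ones. The element was centred 2085 bp upstream of the nearest Foxp3 transcript start, which is internal to the gene. It lay in intron 1 of 7 of the 8 annotated Foxp3 transcripts that span it and in intron 3 of the other. CNS2 has been described in this intron. No coordinates of CNS2 are in the files used here, so its overlap with the element was not measured.

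The bases of the Foxp3 intron element show what it carried. Its 300 central bases held STAT words at positions 21 to 29 and 218 to 226 of the printed sequence, a CRE at 107 to 114, a GATA word at 48 to 53 and an NF-kB word at 238 to 247, and the full element held another STAT word at chrX:7584373-7584381. The element had 11 CpG dinucleotides, 8 of them in the central 300 bp. This count was at percentile 93.5 of positive intronic elements, whose median was 3, while the GC content of 51.2% compared with an intronic median of 46.5%. Of the 5 marked sites, 3 contain a CpG: the first STAT word, the CRE and the NF-kB word.

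The other Foxp3 element (chrX:7574026-7574900, 875 bp) was weaker, with a log2 fold of 1.05 (q = 4.91e-05). It lay 180 bp from a start of Ppp1r3f, a neighbouring gene of a glycogen-targeting phosphatase subunit, and 819 bp downstream of the most upstream Foxp3 start, in intron 1 of that transcript. It was GC-rich (63.1%, 76 CpGs), and its centre held EGR, GATA and Ikaros words. A pair of YY1 words, each 11 bases, stood at one end, at chrX:7574027-7574037 and chrX:7574049-7574059, and this word was in 0.456% of all positive elements. The table had no element within 1000 bp of any other Foxp3 start, and no further one in the gene. An absent row can mean a region that was not tested or one that did not pass the authors' threshold, and these cannot be told apart.

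The promoter elements of the Ikaros-family genes had folds of opposite sign. Ikzf2 (chr1:69531214-69687245, reverse strand) had 1 element, and it was negative: chr1:69687126-69687950 (825 bp), centred 293 bp upstream of a transcript start, with a log2 fold of -1.96, or 0.257 of the input level (q = 2.27e-06). Its size was at percentile 83.6 of the negative promoter elements, whose median was -1.29. The printed 300 bases contain 57 CpGs, at percentile 99.6 of negative promoter elements, and a single SP/KLF word. No other protein-coding gene starts within 50 kb of this element.

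Ikzf4 (chr10:128630843-128645991, reverse strand) had 2 positive promoter elements, both small. The one over the main starts (chr10:128645601-128646000, 400 bp) had a log2 fold of 0.91 (q = 2.32e-03) and a GC content of 63.8%, and held the 2 STAT words printed above. The other (chr10:128644351-128644450) was 100 bp wide, 247.5 bp from an internal start, and had the lowest positive fold of the set, 0.58 (q = 9.57e-04), at percentile 1.44 of all positive elements. Its central window held a TCF/LEF word inside the element, and STAT and E-box words only in the flanking bases.

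At promoters, 2 of the 8 genes, Foxp3 through its upstream transcript and Ikzf4, had a positive element within 1000 bp of a coding transcript start of their own, against 8.63% of all protein-coding genes. A negative one was found at 1 of the 8, Ikzf2, against 17.1%. At Ebi3, Nrp1, Itgae, Lrrc32 and Entpd1 the table had no element at the gene's own promoter.

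Ebi3 (chr17:55952640-55957022, forward strand) had the largest fold near any of the 8 genes, but all 3 elements in its window lay at other genes. The positive one (chr17:55944751-55945675, 925 bp, log2 2.96, 7.81-fold, q = 7.42e-10) was centred 46 bp from a start of Zfp119b and 7427 bp upstream of Ebi3. It has 2 near-identical copies in the genome, of 96.2% and 96.8% identity, at chr17:55878439-55879359 and chr17:55891678-55892607. Both copies are also positive elements, at the promoters of the related zinc finger genes Zfp119a (log2 1.96) and Zfp959 (log2 2.40), 73727 and 60489.5 bp from Ebi3. Each of the 3 carries the CRE, and the handling of reads that match several copies was not stated. No other member element had a copy of at least 90% identity over 80% of its length. The negative elements were at Shd, an SH2-domain adaptor gene: a promoter element (chr17:55970501-55970775, log2 -1.74, q = 2.24e-03, GC 71.3%) and one over its exon 7 (chr17:55976201-55976875, log2 -0.99, q = 3.39e-03), which held a CTCF word.

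Nrp1 (chr8:128358604-128503363, forward strand) had 1 element, 25041 bp upstream of its nearest start in intergenic DNA, with no other protein-coding start within 50 kb. It spanned chr8:128333251-128333875 (625 bp) with a log2 fold of 1.18 (2.27-fold, q = 1.12e-06). In the printed bases a STAT word (positions 142 to 150), an AP-1 word (181 to 187) and a STAT6-spaced word (198 to 207) follow each other, with 30 bases between the first pair and 10 between the second. A further element in the gene body (log2 0.93, q = 1.42e-03) lay 61466 bp from the start, outside the window.

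Itgae (chr11:73090583-73147446, forward strand) had 2 weak intronic elements. The one in its first intron, 2492.5 bp from the start (chr11:73092926-73093225, 300 bp), had a log2 fold of 0.60 (q = 5.51e-03), at percentile 1.94 of positive elements, and held STAT, AP-1 and ETS words. The one in intron 20 (chr11:73128501-73128950, 450 bp) had a log2 fold of 0.83 (q = 5.84e-06) and held an interferon-stimulated response element (ISRE) at positions 53 to 62 of the printed sequence. Haspin, the gene of a mitotic histone kinase, starts nearer to this second element (9568.5 bp) than Itgae does (38142.5 bp).

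Entpd1 (chr19:40612366-40741602, forward strand) had 3 positive elements and no negative one. The strongest, chr19:40684101-40684375 (275 bp, log2 1.29, q = 4.42e-06), was in the first intron of 7 Entpd1 transcripts, 2571 bp downstream of the nearest annotated start and 24439 bp from the nearest coding one, and contained an ISRE overlapping a TCF/LEF word and no CpG. The second, chr19:40639801-40640450 (650 bp, log2 0.80, q = 3.29e-04), lay in intron 1 of a single Entpd1 transcript and held an AP-1 word and a CRE with 32 bases between them. The third, chr19:40589176-40589600 (425 bp, log2 0.88, q = 1.20e-04), was 22978 bp upstream and 925 bp from a start of Aldh18a1, the gene of a proline synthesis enzyme. All 3 folds were between 0.80 and 1.29.

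Lrrc32 (chr7:98489283-98502181, forward strand) had no element in its window. The nearest, at 60903.5 bp, had a log2 fold of 0.64, and 4 further positive elements lay between 68916 and 86341 bp, the strongest at 1.74 (chr7:98580376-98580750, q = 5.54e-08). At the edge of the rule, the outermost element inside the window was the Itgae intron 20 element at 38142.5 bp, and the first outside was the negative Erbb3 promoter element (log2 -0.90) at 54572.5 bp from Ikzf4.

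A nearest-start view narrows the set. For 7 of the 11 positive elements the closest protein-coding transcript start was that of the member gene, and for 1 of the 3 negative elements, the one at Ikzf2. By position, 5 of the positive elements (45.5%) were at promoters, against 13.6% of all positive elements. For 3 of those 5 the nearest coding start was that of Ppp1r3f, Zfp119b or Aldh18a1. The one at Ppp1r3f also lay 819 bp from a Foxp3 start. Another 5 were intronic (45.5%, all positive elements 38.6%) and 1 was intergenic (9.09%, against 44.3%). The 50 kb rule itself favours elements near starts, while all positive elements include those at any distance. These shares were not matched for distance. Width and base composition were ordinary: the median width was 450 bp, as in all positive elements, and the median GC content 47.8%, against 47.5%. The 3 negative elements had GC contents of 55.7% to 71.3%, against a median of 66.3% in all negative elements. Promoters held 2 of these 3, and 73.8% of all negative elements. No link between an element and any gene was measured.

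**Figure D3:**
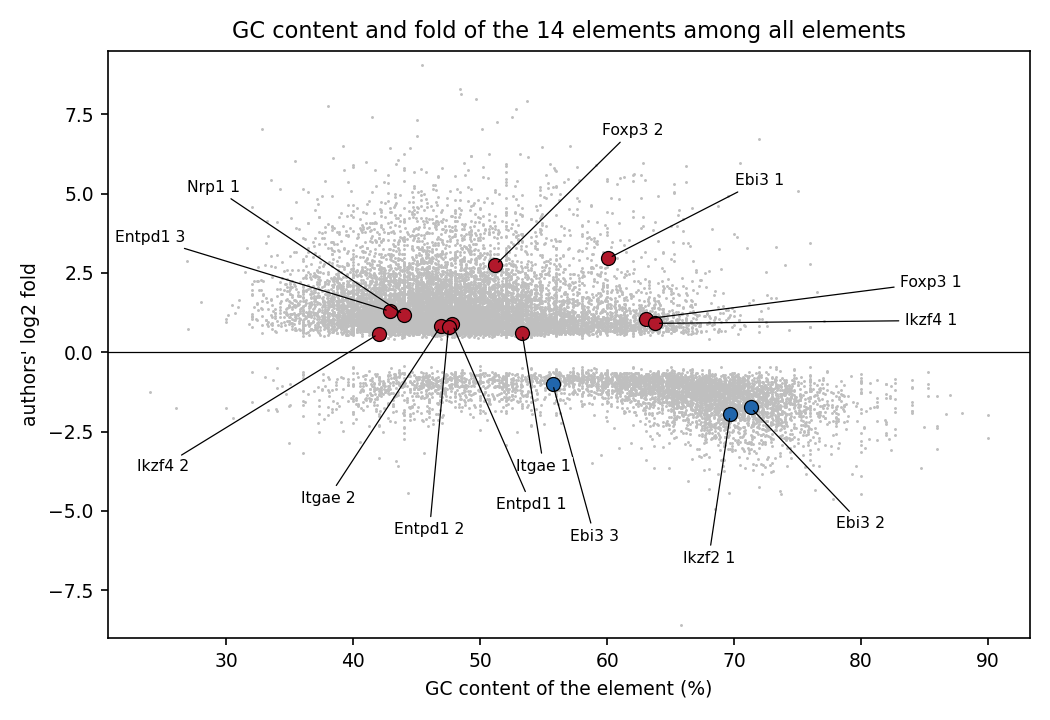
GC content (horizontal, %) and the authors' log2 fold (vertical) of all 18414 elements on assembled chromosomes (grey points) and of the 14 elements near the 8 genes (red positive, blue negative, numbered along each gene in its direction of transcription). Foxp3 1 and Ikzf4 1 are positive at GC contents of 63.1% and 63.8%, and Ikzf2 1 and Ebi3 2 are negative at 69.7% and 71.3%.

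A list of 23 consensus sites was searched on both strands in the central 300 bp of every element, and the share of each site found is given beside that of all 13170 positive elements and of 32817 RefSeq promoter sequences of 300 bases. The STAT word TTCNNNGAA, read by STAT dimers such as STAT5, was in 6 of the 11 positive members (54.5%), against 18.5% of positive elements and 8.29% of promoters. These were the intronic Foxp3 element, the Nrp1 element, the first-intron Itgae element, the Aldh18a1 promoter element near Entpd1 and both Ikzf4 elements, although at the 100 bp Ikzf4 element the word lay outside the element proper. Searched over whole elements the count was again 6 of 11, with the upstream Entpd1 intron element in place of the narrow Ikzf4 one, against 23.5%. Outside promoters 3 members held it. None of the 3 negative members did, and 3.89% of all negative elements do.

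The CRE, TGACGTCA, which binds CREB and ATF factors, was in 2 of the 11 (18.2%), Foxp3 and Entpd1, against 2.27% of positive elements and 1.79% of promoters, and in 3 of 11 over whole elements (3.01% of all) with Zfp119b. AP-1, TGACTCA or its complement TGAGTCA, was in 3 (27.3%), close to the 29.5% of all positive elements, and in 5.2% of promoters. Those 3, at Nrp1, Itgae and Entpd1, each also held a STAT word within the element, 30, 96 and 260 bases away. The ISRE, GAAA and GAAA with 2 bases of any kind between them, was in 2 (18.2%, against 12.6% of positive elements and 3.43% of promoters). GATA sites, AGATAA or TGATAA, were in 3 (27.3%, against 23.3% of positive elements and 18.6% of promoters). TCF/LEF sites, CTTTGAA or CTTTGAT, were also in 3 (27.3%, against 13.9% and 8.65%). With 11 elements a single one moves a share by 9.09 points, and these sites were read as letters only.

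Other sites were in few members. ETS (AGGAAGT or CGGAAGT) was in 2 of the 11, against 16% of positive elements and 15.1% of promoters, and Ikaros (TGGGAAA or TGGGAAT) in 2, against 9.78% and 12.2%. The remaining sites found were in 1 each (9.09%). RUNX (TGTGGTT) is in 11.9% of positive elements and 5.27% of promoters, and the STAT6 spacing (TTC and GAA with 4 bases between) in 10.4% and 6.94%. NF-kB by its degenerate consensus is in 9.12% and 8.46%, EGR (GCGTGGGCG) in 0.281% and 0.612%, and the E-box (CACGTG, here in the flank of the narrow Ikzf4 element) in 4.38% and 7.15%. In the central 300 bp, the FOX word GTAAACA, read by forkhead factors such as FOXP3, was in none of the 11 positive members. The same held there for NFAT (TGGAAAA), SMAD (GTCTAGAC), NBRE (AAAGGTCA), SP/KLF (GGGCGGGG) and, by name, the composite BATF-IRF, CTCF, NRF1, YY1 and p53 sites. The pair of YY1 words in the weaker Foxp3 element lay outside that window. FOX words were in 4.55% of all positive elements and 3.65% of promoters, and SP/KLF words in 4.51% and 17.6%. Among the negative members, SP/KLF was at Ikzf2 (28.7% of all negative elements hold it), with a FOX word outside its central window. NF-kB was at both Shd elements (13.8% of negative elements), and ETS (9.73%), Ikaros (6.29%) and CTCF (2.35%) words were at the Shd exon. AP-1 overlaps the composite site, and the TCF/LEF word at Aldh18a1 lies inside the STAT word there.

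**Figure D4:**
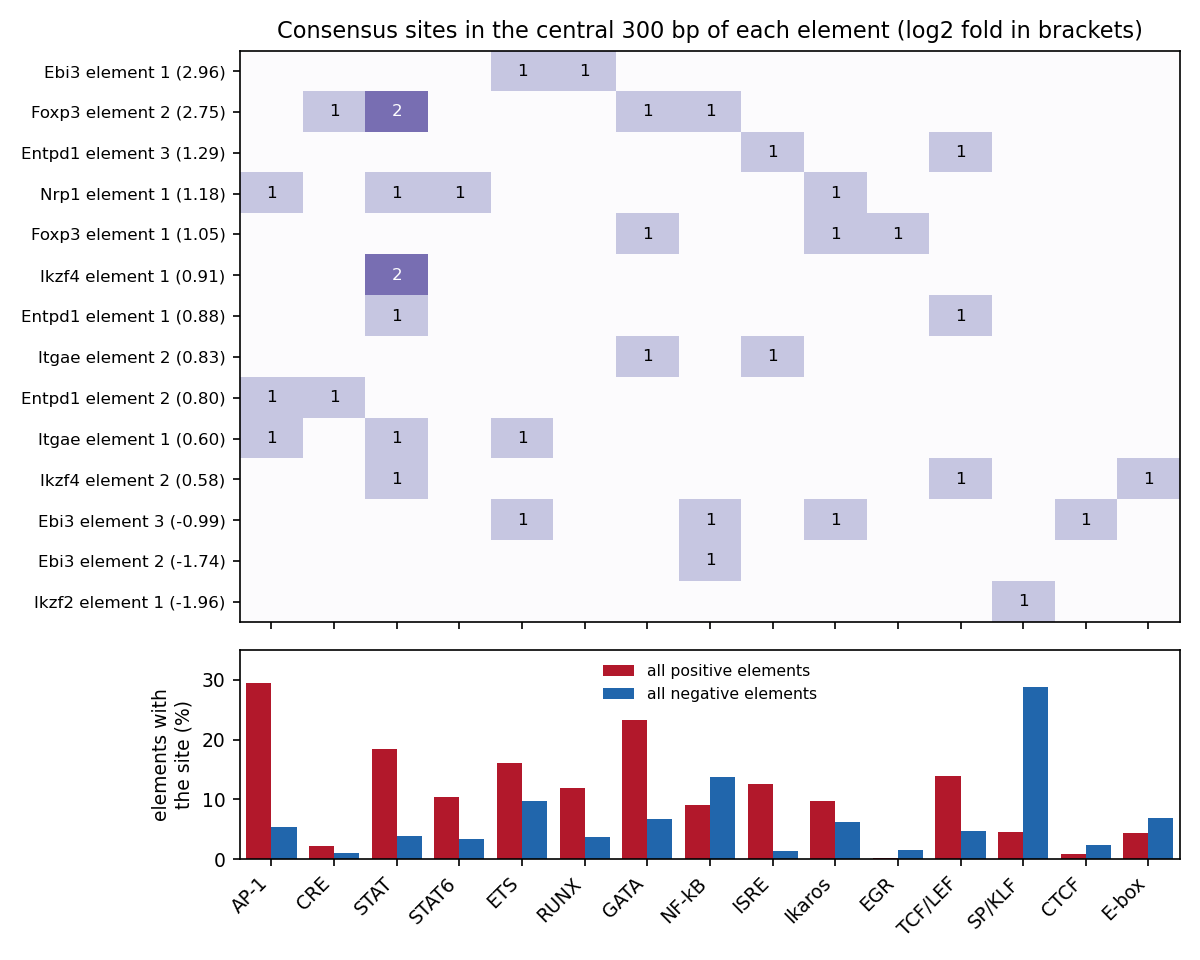
Number of matches to each consensus site (columns) in the central 300 bp of the 14 elements (rows, ordered by log2 fold, given in brackets), for sites found at least once. Bars below give the percent of all positive (red) and all negative (blue) elements with the site. The STAT column is filled in 6 of the 11 positive rows and in none of the 3 negative rows.

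The wider regulatory T-cell programme, 51 further genes in 3 lists, had a positive element within 50 kb of 46 genes (90.2%, against 55.1% of all genes) and a negative one near 28 (54.9%, against 39.9%). The median log2 fold of its 135 positive elements was 1.15, and there were 3.41 elements per gene, counting shared ones once. At their own promoter 11 genes (21.6%, against 8.63% of all genes) had a positive element. A negative one was there at 14 (27.5%, against 17.1%). In these 135 elements the STAT word was in 18.5%, the same share as in all positive elements, and the CRE in 1.48%.

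Among 16 factors that induce FOXP3 or act with it, 14 had a positive element (87.5%, against 55.1% of all genes). The lowest q-values were at Bach2, a repressor of effector differentiation (log2 2.89, q = 9.98e-11, 13457 bp away and nearer to Gja10), and at Nr4a3, an orphan receptor induced by T-cell receptor signals (2.28). Foxp1, a forkhead relative of FOXP3, had 12 positive elements and 1 negative one (log2 -0.72) in its window. This window joins 50 kb around each of its transcript starts, so it is wider than that of a gene with 1 start. Its leading positive element (chr6:99035676-99035900) and the negative one (chr6:99302501-99302550) are too far apart to lie within 50 kb of the same start. Cbfb, the RUNX partner subunit, and Rel, the NF-kB subunit c-Rel, had only a negative element, each at its promoter (log2 -1.60 and -0.94). Satb1, a chromatin organiser, had a negative promoter element at -1.74 and a positive intronic one at 0.70.

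Of 11 genes of interleukin-2 and TGF-beta input, 10 had a positive element (90.9%, against 55.1% of all genes). Il2ra, the interleukin-2 receptor alpha chain, had 6 positive and no negative elements, led by one of log2 1.94 (q = 9.11e-10) that lies nearer to Gm17490. Stat5b and Tgfbr1, which encode a STAT and a TGF-beta receptor, had negative promoter elements (-1.65 and -1.50), and Smad2, a TGF-beta signal transducer, had one at -2.63. Each of these genes also had at least 1 positive element in its window. Il2rg, the common gamma chain, had no element.

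Of 24 surface and effector genes 22 had a positive element (91.7%, against 55.1% of all genes). The promoter of Ctla4, an inhibitory receptor of regulatory T cells, held one centred 24.5 bp from a start (log2 2.87, q = 7.90e-09), and Tnfrsf9 (4-1BB) one 938.5 bp away (2.81). Tnfrsf18 (GITR) and Tnfrsf4 (OX40) share their leading element (2.48). It was classed as intronic, and the gene of that intron was not named. Its nearest coding start was that of Tnfrsf4, and the nearest Tnfrsf4 transcript start of any kind was 5367.5 bp away. The largest leading fold was at Areg, the gene of amphiregulin (3.66), and the lowest q-value at Lag3, an inhibitory receptor (3.47, q = 6.00e-11), whose window also held a negative element of -4.25 at the promoter of Ptms. Itgb8 and Swap70 had none. Several of these receptors are also made by activated helper T cells in general, so the lists are not exclusive to regulatory T cells.

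**Figure D5:**
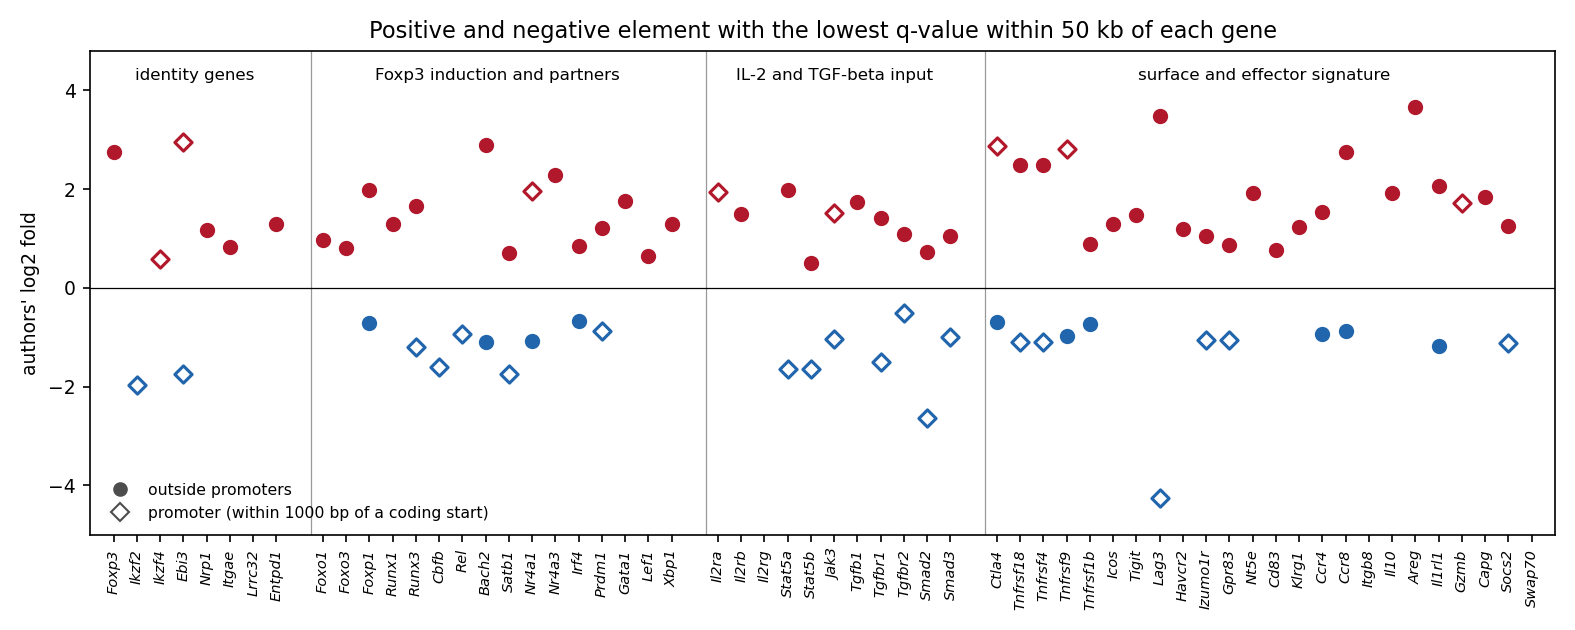
The authors' log2 fold (vertical axis) of the positive (red) and negative (blue) element with the lowest q-value within 50 kb of each of the 8 identity genes and 51 further genes (horizontal axis, by list). Open diamonds are promoter elements, filled circles all others. Foxp3 (2.75) lies among the higher points, and the leading positive folds of Ikzf4, Nrp1, Itgae and Entpd1 run from 0.58 to 1.29.

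Set beside identity genes of the Th1 lineage, the 8 regulatory T-cell genes had fewer elements. They had 1.75 per gene, against 4.12 near the Th1 genes and a mean of 1.69 over all protein-coding genes. Within 50 kb of 8 Th1 genes such as Tbx21 and Ifng there were 33 elements. A positive one lay near all 8, against 55.1% of all protein-coding genes. The median log2 fold of the positive elements was 0.94, against 0.91 near the regulatory T-cell genes. Negative elements lay near 3 of the 8 Th1 genes (37.5%, against 39.9% of all genes). These counts were not tested against each other, and neighbouring genes share elements.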

How the data were processed

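The authors deposited 1 element table derived from the mm10 alignments of both output libraries, per the labels and the deposited file lists. The authors' deposited log2 fold, p-value and q-value are used as given, and for the aligner, element caller, test and versions nothing was given in the sources used here. Starts count from 1, since end minus start plus 1 equals the deposited width in all 18431 elements. No count, depth or value per library is in the table.

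Elements were joined to GENCODE M21 transcript starts (mm10, the build of the table) by midpoint. Promoters were within 1000 bp of a protein-coding transcript start, then exon, intron and intergenic were assigned in that order from protein-coding genes. Sequences came from the GRCm38.p6 RefSeq genome, and promoter sequences of 300 bases from RefSeq's table of that build. Sites were searched with Python 3.11.15, intervals computed with scipy 1.17.1, copies found with BLAST+ 2.17.0, and the window and site searches were tested on simulated data (49 tests, 0 failed). No test between groups was possible with 1 group and 1 value per element, so counts and medians stand beside those of all elements or genes. Every element near the 8 genes was reported, with full values for the lowest q-value in each direction at each gene. The members, lists and sites were chosen with earlier results of these data known. Alternatives changed the window, the starts, the overlap rule, the q-value and fold limits, the promoter width and the searched length. A further comparison list is not reported here.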

Additional observations from a re-analysis of the deposited data

How the results depend on the processing

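No paired analysis was possible because there is 1 group and no value per library, and for the same reason no library could be left out. Depth behind an element is unknown. Of 52 alternative values of the main counts and medians, 41 stayed within 1.5 times the count or inside the interval of the median, and 11 moved. That interval, 0.60 to 2.75, covers most of the range of the positive folds, so the median could hardly leave it. An absolute log2 fold of at least 1 raised the median from 0.91 to 1.29 by construction, and it still counted as unmoved. The medians are thus no sign of stability. With a window of 100 kb there were 26 positive and 8 negative elements, and 5 genes with a negative one. A q-value below 0.001 left 1 negative element at 1 gene, and an absolute log2 fold of at least 1 left 5 positive elements. Counting only elements whose nearest coding start is the member left 7 positive elements, and 1 negative element at 1 gene. Promoters of 500 bp made 2 elements intergenic in place of 1. Outside promoters 7 elements held at least 1 site, against 14 in all. Each of these changes which elements enter by construction, and the cause was not tested further. The number of the 8 genes with a positive element ranged from 4 (absolute log2 fold of at least 1) to 8 (100 kb), and the number of the 51 further genes from 36 to 48 under the same settings. Of 45 alternative counts of elements with a given site, over all 14 elements, 12 moved. Outside promoters STAT fell from 6 to 3 elements and TCF/LEF from 3 to 1, and RUNX, EGR and SP/KLF from 1 to 0. In the central 200 bp GATA and Ikaros each fell from 3 to 1 and CTCF from 1 to 0. Over whole elements ETS rose from 3 to 5. The single E-box was lost under all 3 of these settings.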
